A study of Mus musculus with 14 samples.

Results

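The cortex of 8 mice aged 4.5 months was compared between Dnmt3a-mi5 mice (n = 4), in which the 5 miR-29 sites of the Dnmt3a 3′ UTR had been mutated, and Dnmt3a-WT mice (n = 4). These 8 libraries were chosen by the column names of 1 deposited table, out of 14 in the series, and every one of the 24444 genes of that table was considered. The mutation was a knock-in made with CRISPR/Cas9, 2 guides and a donor carrying the changed sites, so the microRNA genes themselves and all their other targets were intact in both groups. It was not limited to 1 cell type by any Cre. The zygosity and the number of founder lines were not given in the sources used here. The other 6 libraries of the series came from a model in which the microRNAs were removed: both miR-29 clusters, floxed, were deleted with Nestin-Cre, a driver for the neural lineage (miR29Nestin, n = 3, against miR29WT, n = 3, postnatal day 40). The comparison asks which cortical transcripts differ when Dnmt3a alone is released from miR-29.

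A microRNA lowers the level of transcripts whose 3′ UTR pairs with its seed, the stretch of bases near its 5′ end. Dnmt3a encodes the DNA methyltransferase that writes new methylation in postnatal neurons, including the methylation outside CG dinucleotides that accumulates while synapses mature. Methylated DNA is read by proteins that recruit corepressors, and the TET enzymes start its removal. The family miR-29 rises in the maturing brain, and Dnmt3a is among its best known targets.

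The 5 sites that were mutated lie on the plus strand of chromosome 12, in the longest annotated 3′ UTR of Dnmt3a (3907748 to 3914443, 6696 nucleotides, GRCm38, GENCODE M21). They are shown because the change within them is the whole genetic difference between the groups as designed. Each is given 5′ to 3′ as DNA with the 7 bases that pair with the seed in capitals.
site 1 (chr12:3908561-3908590): cgacttcataaTGGTGCTttcaaaacagcg
site 2 (chr12:3908988-3909017): acaaaatgtacTGGTGCTttctgtctaagt
site 3 (chr12:3910824-3910853): tcagctgggccTGGTGCTcccgtgcctggg
site 4 (chr12:3911394-3911423): ggggaggtagcTGGTGCTagcaccagggtc
site 5 (chr12:3911463-3911492): gggtcccaagcTGGTGCTaattcctctcat
site 1 as mutated: cgacttcataaCACGGCTttcaaaacagcg
site 5 as mutated: gggtcccaagcCACGGCTaattcctctcat

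The same 4 substitutions were designed into each site, T1C, G2A, G3C and T4G, counted from 1 at the 5′ end of the capitals. The 5 sites span 2909 bases, and sites 4 and 5 are followed by an A. All 3 mature forms of the family share 1 seed, bases 2 to 8, shown here in capitals in their RNA sequences 5′ to 3′ (RefSeq, GRCm38.p6).
miR-29a-3p: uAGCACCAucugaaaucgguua
miR-29b-3p: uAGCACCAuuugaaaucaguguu
miR-29c-3p: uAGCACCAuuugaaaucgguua

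The guides placed the cuts at the outermost sites. The target of guide miR-29-1, on the plus strand (chr12:3908555-3908571), ends directly before the 7 bases of site 1. The target of guide miR-29-5, on the minus strand (chr12:3911471-3911488), holds the complement of site 5, in capitals.
guide miR-29-1: acatcccgacttcataa
guide miR-29-5: gaggaattAGCACCAgct

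The deposited values are log2 expression after a variance-stabilising transformation, on which a fold change of a low gene is understated. They were converted back to approximate normalised counts per library for display. The read depth is unknown: normalised totals per library were 10.2 to 10.4 M, and 18002 to 18109 genes per library lay above the level of 0 reads. Libraries of 1 group correlated at 0.988 to 0.997. The table holds 2 sets of 4 libraries, each with Dnmt3a-WT and Dnmt3a-mi5 libraries in equal number, between which a difference had been removed for every gene before deposit. Set 1 holds libraries 1 and 2 of each group and set 2 libraries 3 and 4, numbered by column order. Dnmt3a-WT library 2 stood apart in some genes named below and had the lowest weight when limma weighted the libraries (0.387, where the highest had 1.64). As a check of the tissue, 32 of 34 excitatory neuron and layer markers passed the filter on low values. Nothing in the labels says more of the mice than their age and genotype, so the p-values measure the spread between these samples.

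Dnmt3a (ENSMUSG00000020661.15, chromosome 12, 3806007 to 3914443) rose in the Dnmt3a-mi5 cortex, by less than a doubling. It stood at 1200.3, 1062, 1085 and 1234 approximate normalised counts in the Dnmt3a-WT libraries and at 2249, 1958, 2163 and 1948 in the Dnmt3a-mi5 libraries. The groups did not overlap, and the lowest mutant library lay far above the highest wild-type library. The group means were 1145 ± 84.6 and 2079.5 ± 151 (SD, n = 4 each), a 1.82-fold difference. On the deposited scale the log2 difference was 0.70 (SE 0.06, limma adjusted p = 0.00155), with 0.73 in set 1 and 0.67 in set 2. An exact permutation test (2-sided) gave p = 0.0286, the smallest that 70 assignments allow, and p = 0.0556, the smallest of the 36 assignments balanced over the sets. Dnmt3a was the strongest result in the table and the call held when any 1 library was left out.

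Few other transcripts changed by a test across all genes, most of them lower. Of 10097 genes tested with limma, 12 passed an adjusted p of 0.05 (0.119%), 3 higher (0.0297%) and 9 lower (0.0891%). Apart from Dnmt3a these were Jade2 and Scrt2, which rose, and Btg2, Cyr61, Fos, Dusp6, Cpeb4, Cacna2d1, Ptprk, Tmem65 and Cx3cr1, which fell. All 12 had groups that did not overlap, beside 12.3% of all genes tested (5.42% higher and 6.84% lower). Selection by p on the same values made this likely, so it adds no support. The same direction in both sets, seen for all 12, follows from it. The changes were small: the median absolute log2 difference over all genes tested was 0.04, and the 11 called genes other than Dnmt3a differed by 0.24 to 0.45 on that scale. The number of calls rested on the model and on single libraries. It was 90 (0.891%, with 24 higher, 0.238%, and 66 lower, 0.654%) when the 2 sets were not a term in the model, with all 12 among them. That fit does not count the degree of freedom that the removed set difference had used (6 residual degrees of freedom, beside 5). Its p-values therefore tend to be too small, here and wherever a value without the set term is given. With 1 library left out the number of calls ran from 1 to 82. It was 1 without Dnmt3a-WT library 3, Dnmt3a-WT library 4 or Dnmt3a-mi5 library 2, and 82 without Dnmt3a-WT library 2.

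**Figure D1:**
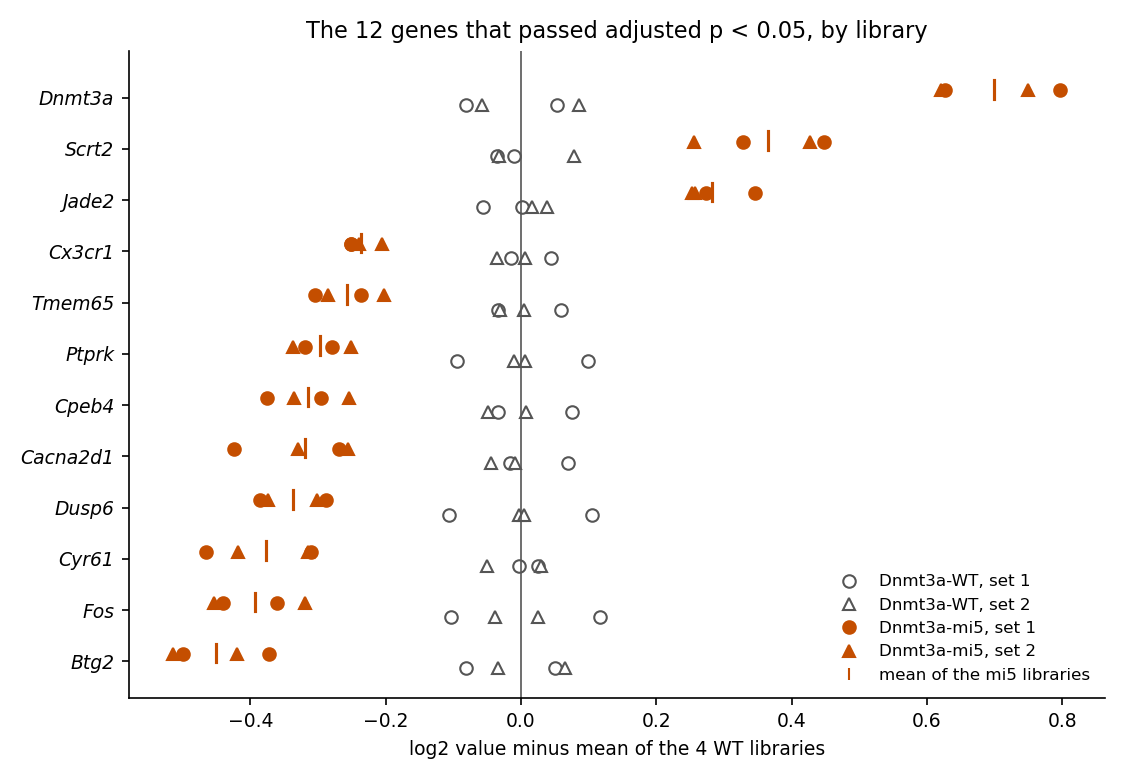
Log2 value of each of the 12 called genes in each library, minus the mean of the 4 Dnmt3a-WT libraries (x axis), with 1 row per gene; open symbols are Dnmt3a-WT, filled symbols Dnmt3a-mi5, circles set 1, triangles set 2, and vertical marks the Dnmt3a-mi5 mean. In every row the filled symbols lie apart from the open ones, with Dnmt3a farthest from 0 at a mean of 0.70.

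Below that threshold the table held more differences. At an unadjusted p under 0.05 there were 1522 genes (15.1%), of which 643 were higher (6.37%) and 879 lower (8.71%). These shares are the background for every gene group described here. Of the 5 genes whose log2 difference exceeded 0.5 in size, Dnmt3a alone was called. The other four, singled out after their values were seen, had groups that overlapped. Rnf157 ran from 363 to 2541 counts in Dnmt3a-WT and from 1725 to 4782 in Dnmt3a-mi5, and the striatum-enriched sodium channel subunit Scn4b from 1258 to 2481 and from 2021 to 3825. The choroid plexus gene Ttr ran from 68.7 to 10812 counts in Dnmt3a-WT and from 164 to 12609 in Dnmt3a-mi5, and the ribosomal RNA locus Rn45s from 47456 to 191352 and from 20943 to 177261.

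**Figure D2:**
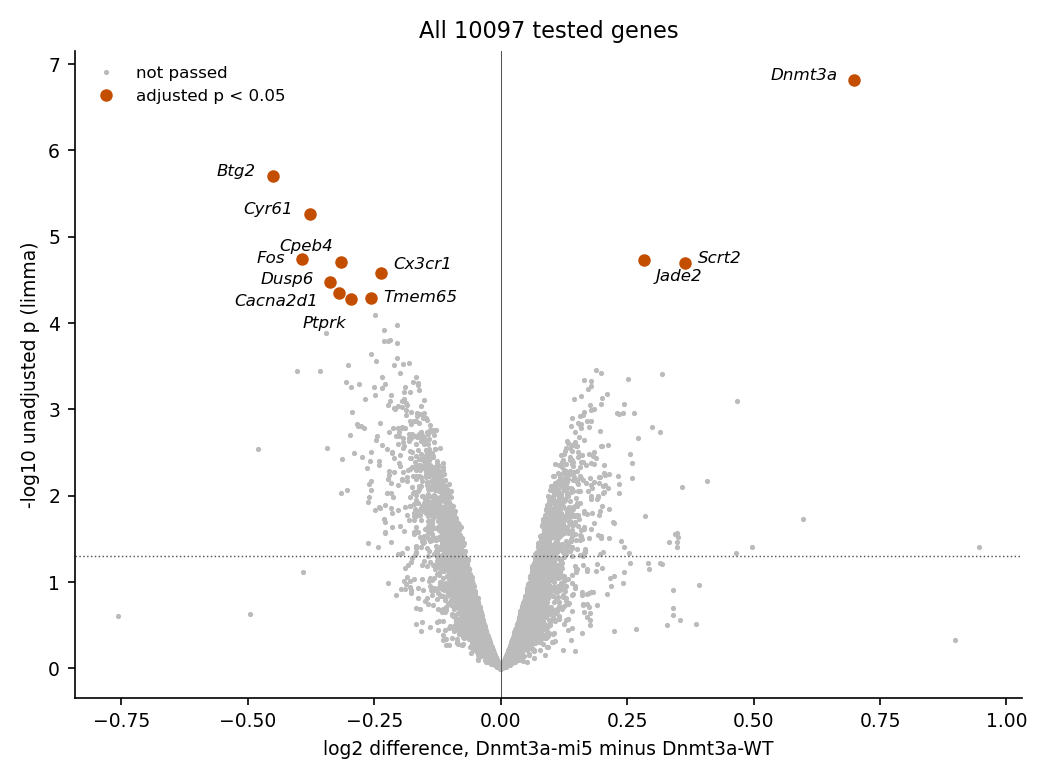
Log2 difference between Dnmt3a-mi5 and Dnmt3a-WT (x axis) against -log10 of the unadjusted limma p (y axis) for all genes tested by limma; orange points are the 12 called genes and the dotted line marks the unadjusted threshold. Dnmt3a lies alone at the upper right, and 9 of the 12 called genes lie to the left of 0.

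Among immediate early genes, which neurons switch on within minutes of activity, 3 of 30 tested members fell (Btg2, Fos and Dusp6) and none rose. At an unadjusted p, 10 were lower and 2 higher, 18 passed in neither direction, and the median log2 difference was -0.10, beside 0.00 over all genes. The summed counts of the list overlapped between the groups, with 26026 to 33669 in Dnmt3a-WT and 25861 to 27526 in Dnmt3a-mi5. Btg2, an antiproliferative factor (chromosome 1, 134075170 to 134079120), stood at 318, 266, 284 and 324 counts in Dnmt3a-WT and at 172, 139, 135 and 159 in Dnmt3a-mi5. Every mutant library was below every wild-type library, and the log2 difference was -0.45 (SE 0.05, limma adjusted p = 0.00992).

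Fos, a subunit of the AP-1 transcription factor (chromosome 12, 85473890 to 85477273), stood at 612, 481, 518 and 554 counts in Dnmt3a-WT and 355, 321, 374 and 315 in Dnmt3a-mi5. On the log2 scale it differed by -0.39 (SE 0.05, limma adjusted p = 0.0294), a fold of 0.63 on the count scale. Dusp6, a phosphatase that switches off ERK kinases (chromosome 10, 99263231 to 99267489), stood at 965, 788, 871 and 878 counts against 593, 657, 647 and 600.3. It fell by 0.34 on the log2 scale (SE 0.05, limma adjusted p = 0.0376), and its groups did not overlap either.

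Dusp1, Junb, Nr4a1, Ier2 and Egr2, named after their values were seen, were also lower in every mutant library than in any wild-type library, without passing the adjusted threshold. Dusp1, another kinase phosphatase, had a log2 difference of -0.35 (adjusted p = 0.0815, and 0.0351 without the set term). Nr4a1, a nuclear receptor, had the largest difference of the list, -0.48, with counts of 1967, 1031, 1498 and 1562 against 1012, 985, 936 and 930.3 (adjusted p = 0.154). Its Dnmt3a-WT library 2 lay just above the mutants, and the other 3 wild-type libraries far above them. The same held for Ier2 (208, 109, 162 and 167 counts against 102, 103, 97.5 and 91.4).

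Arc, which acts at active synapses, and Egr1, a zinc finger factor, overlapped between the groups. Arc stood at 4935, 2447, 3702 and 3734 counts against 3577, 2988, 3194 and 2956, with Dnmt3a-WT library 2 the lowest of all 8 (log2 difference -0.17, adjusted p = 0.663). Egr1 stood at 5892, 3778, 4664 and 4978 counts against 4328, 4035, 4614 and 3636 (log2 difference -0.19, adjusted p = 0.465). The count of members lower at an unadjusted p was 14 without Dnmt3a-WT library 2, in which many of these genes were lowest of their group, and at least 8 without any other library. The handling of the mice before dissection, which can move these genes, was not given in the sources used here, and its part in the result was not tested.

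**Figure D3:**
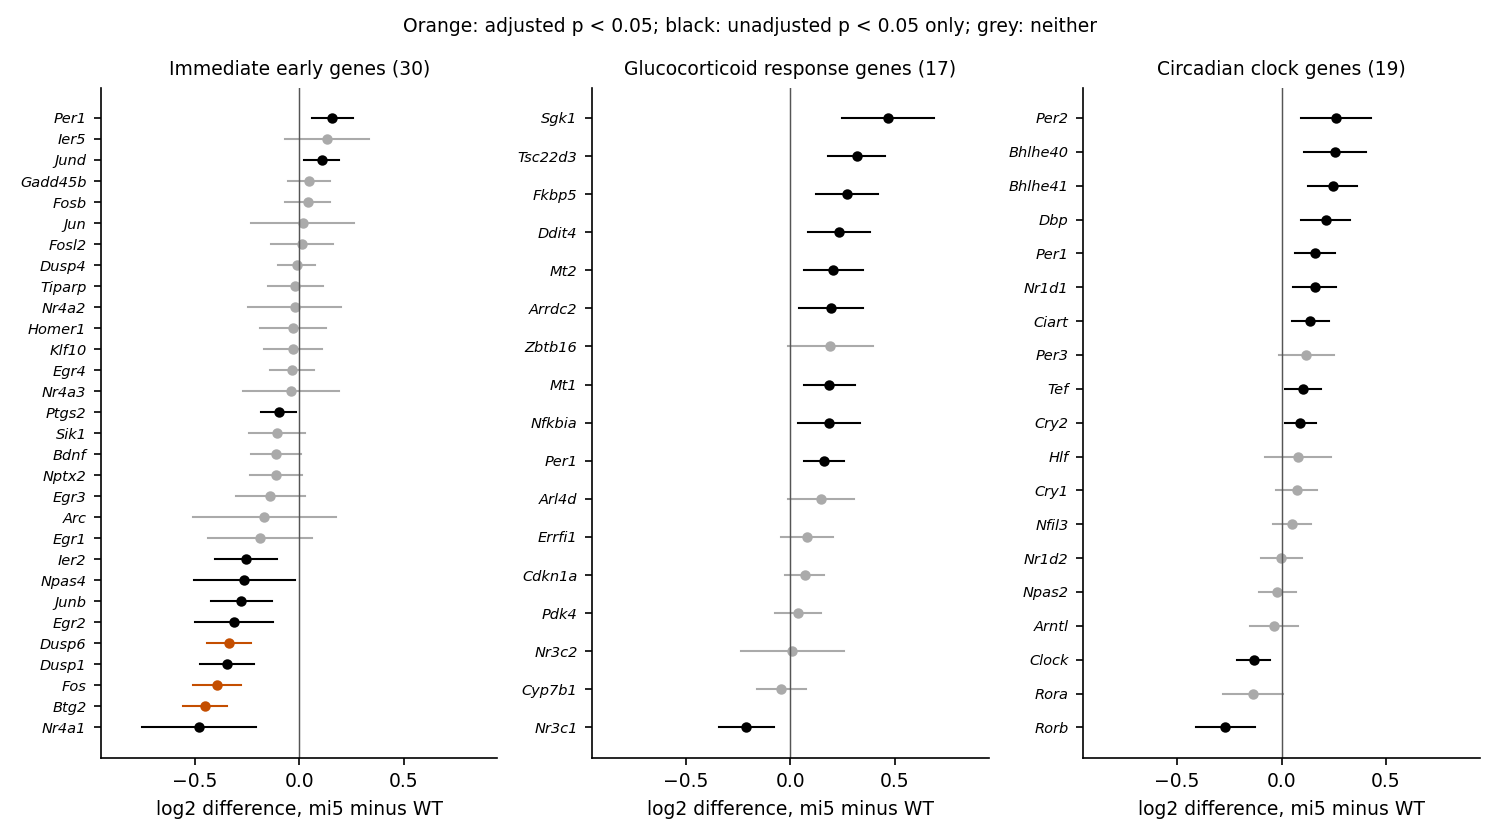
Log2 difference (x axis) with its 95% interval from limma for each tested member of 3 lists (rows): 30 immediate early genes, 17 glucocorticoid response genes and 19 circadian clock genes. The 3 orange points, Btg2, Fos and Dusp6, are members past the adjusted threshold, black points passed the limma threshold without adjustment, and most black points lie left of 0 in the first panel and right of 0 in the other two.

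Among the regulators of transcription and translation, Jade2 and Scrt2 rose and Cpeb4 fell. Scrt2, a neuronal zinc finger repressor of the Snail family (chromosome 2, 152081529 to 152095802), stood at 232, 240.1, 233 and 272 counts in Dnmt3a-WT and at 433, 376, 423 and 344 in Dnmt3a-mi5. The groups lay well apart, with a 1.61-fold difference of the means and a log2 difference of 0.36 (SE 0.05, limma adjusted p = 0.0294). Jade2, a PHD finger protein of histone acetyltransferase complexes (chromosome 11, 51813455 to 51857653), stood at 1024, 1079.6, 1116 and 1095 counts against 1464, 1376, 1351 and 1357. On the log2 scale it differed by 0.28 (SE 0.04, limma adjusted p = 0.0294).

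Cpeb4, which binds cytoplasmic polyadenylation elements in mRNA and regulates their translation (chromosome 11, 31872211 to 31935634), stood at 1872, 1708, 1768 and 1689 counts against 1366, 1274, 1417 and 1319.8. It fell by 0.32 on the log2 scale (SE 0.04, limma adjusted p = 0.0294). It was 1 of 20 RNA-binding translation regulators tested, of which 6 were lower and 1 higher at an unadjusted p. Fmr1, which encodes the fragile X protein, was among the lower ones with a log2 difference of -0.14 (adjusted p = 0.154), named after its values were seen. Without Dnmt3a-mi5 library 1 the count of lower members was 3.

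Cacna2d1, an auxiliary subunit of voltage-gated calcium channels (chromosome 5, 15934691 to 16374511), stood at 3192, 3409, 3121 and 3207 counts in Dnmt3a-WT and 2314, 2618, 2646 and 2496 in Dnmt3a-mi5. The 2 groups did not touch, and the log2 difference was -0.32 (SE 0.05, limma adjusted p = 0.0441). Ptprk, a receptor tyrosine phosphatase (chromosome 10, 28074820 to 28597397), stood at 650.1, 789, 708 and 720.4 counts against 512, 535, 501 and 551, with a log2 difference of -0.30 (SE 0.04, limma adjusted p = 0.0441).

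Tmem65, a protein of mitochondria (chromosome 15, 58782269 to 58823638), stood at 1258, 1157, 1197 and 1161 counts in Dnmt3a-WT and 902, 962, 992 and 918 in Dnmt3a-mi5. Cyr61, a secreted matrix protein with 4 wild-type libraries at 149, 156, 137 and 157 counts, stood at 80.9, 55.1, 80.2 and 62.4 in the mutants (chromosome 3, 145646976 to 145649981). These were the lowest levels among the called genes, and Cyr61 fell by 0.38 on the log2 scale (SE 0.04, limma adjusted p = 0.0182), a fold of 0.465 on the count scale. Tmem65 fell by 0.26 (SE 0.04, limma adjusted p = 0.0441).

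Calls other than Dnmt3a were lost often when 1 library was left out. Btg2 kept its call in 5 of 8 such fits, Cyr61 in 4, Fos, Scrt2 and Ptprk in 2 each and the other 6 in 1 each, the fit without Dnmt3a-WT library 2 among them for every gene. None of the 12 changed direction under the alternatives run, which follows largely from groups that did not overlap. Btg2, Fos, Tmem65 and Ptprk carry 1 match of the miR-29 site each in their longest annotated 3′ UTR, and the other 7 called genes besides Dnmt3a carry 0. Of all tested genes with an annotated 3′ UTR, Dnmt3a left out, 1813 carry at least 1 match and 8122 carry 0.

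The rest of the DNA methylation machinery gave no further call. Of 6 tested writers and cofactors, Dnmt3a rose and Mat2a, which makes the methyl donor, was higher at an unadjusted p (log2 difference 0.09, adjusted p = 0.311). Dnmt1, the maintenance enzyme, stood at 716, 751, 726 and 733 counts in Dnmt3a-WT and 742, 789.5, 795 and 745 in Dnmt3a-mi5. These ranges overlapped, with a log2 difference of 0.05 and a 95% interval of -0.03 to 0.12.

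None of the 10 tested TET and demethylation genes passed even without adjustment. Tet1 carries 7 exact matches of the miR-29 site in its longest 3′ UTR, Tet2 carries 5 and Tet3 carries 8, all intact in these mice. Tet3 stood at 845, 866, 834 and 834 counts against 977, 842, 913 and 948, a log2 difference of 0.09 (95% interval -0.00 to 0.18). Tet1 had a mean of 145 ± 20.3 counts against 144 ± 10.7 and Tet2 of 552 ± 78.8 against 568 ± 40.4 (SD, n = 4 each), so that both differed by less than the spread between replicates. In miR29Nestin, where miR-29 itself was removed, Tet3 rose by 0.91 on the log2 scale (limma adjusted p = 1.07e-05) and Tet1 by 0.46 (adjusted p = 0.00434).

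Of 16 tested readers and corepressors, 1 was lower and 1 higher at an unadjusted p. Tbl1xr1, a subunit of a corepressor complex, stood at 1098, 1065, 1113 and 1041 counts against 901, 854, 837 and 928. Its mutant libraries all lay lower, but its log2 difference of -0.22 had an adjusted p of 0.0849 in limma (0.0284 without the set term).

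Outside DNA methylation, 21 Polycomb and H3K36 or H3K4 methylation genes were tested. Kdm6b, which removes the Polycomb mark H3K27 methylation, stood at 437, 441, 454 and 420.1 counts against 587, 508, 532 and 566, with a log2 difference of 0.20 (limma adjusted p = 0.115). The groups did not overlap. Nsd2, an H3K36 methyltransferase, differed by -0.10 (adjusted p = 0.27).

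Of 22 tested members of a list of other miR-29 targets, 2 were higher and 4 lower at an unadjusted p, none passed the adjusted threshold, and the median log2 difference was 0.02. In miR29Nestin, where 9.02% of all genes tested rose and 10% fell, 11 of these 22 rose and 2 fell, with a median of 0.19. Cdc42, a small GTPase, stood at 2611, 2725, 2581 and 2558 counts in Dnmt3a-WT and 2238, 2347, 2462 and 2302 in Dnmt3a-mi5. It was lower in every mutant library (log2 difference -0.14, limma adjusted p = 0.165).

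The 8 tested matrix genes that miR-29 targets had a median log2 difference of -0.01. Col4a1, a basement membrane collagen, was higher by 0.20 (adjusted p = 0.182) and Col5a1, a fibrillar collagen, lower by 0.22 on the same scale, which is a log2 difference of -0.22 (adjusted p = 0.18). Their counts ran from 337 to 473 against 463 to 549 for Col4a1 and from 273 to 402 against 228 to 271 for Col5a1, so the first pair of groups overlapped and the second did not.

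Across the whole table, genes were also split by the number of TGGTGCT matches on the sense strand of their longest annotated 3′ UTR, with Dnmt3a left out. The median log2 difference was 0.00 for 8122 genes without a match, -0.01 for 1508 with 1, -0.01 for 248 with 2 and 0.00 for 57 with 3 or more. The share lower at an unadjusted p was 8.09%, 10.9%, 11.3% and 22.8% in that order, the last being 13 of 57, and the share higher was 6.46%, 6.37%, 5.65% and 8.77%. Gene length and UTR length moved with the class: the median gene length was 27.1 kb without a match and 38.4 kb with 3 or more, and the median 3′ UTR was 1377.5 and 4863 nucleotides. Among genes up to 100 kb, a division chosen after the values were seen, the share lower was 6.98% without a match and 16.3% with 3 or more, which was 7 of 43. The part of UTR length in these shares was not tested.

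Neuronal transcription factors gave lower values for several members that also fell in miR29Nestin. Of 14 tested members of a list of Mef2, Scrt, Zbtb18 and related factors, chosen with results of these tables known, Scrt2 rose, 8 were lower at an unadjusted p, and the median log2 difference was -0.09. Mef2c, a factor of excitatory neurons, stood at 9359.8, 7576, 8039 and 8482 counts in Dnmt3a-WT and 5537, 6837, 6596 and 5978 in Dnmt3a-mi5. The highest mutant library lay below the lowest wild-type library (log2 difference -0.40, adjusted p = 0.115, and 0.0466 without the set term). In miR29Nestin Mef2c fell by 0.72 (limma adjusted p = 5.85e-06).

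Mef2a stood at 1954, 1908, 1992 and 1915 counts against 1719.7, 1664, 1715 and 1629.8, and Zbtb18, a repressor active in cortical neurons, at 4390.4, 3834, 4341 and 3826 against 2935, 3633, 3009 and 3594. Neither pair of groups overlapped, and the log2 differences were -0.17 and -0.29 (limma adjusted p = 0.115 and 0.157). The 8 lower members were 4 without Dnmt3a-WT library 3.

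Of 37 tested synaptic adhesion genes, none passed the adjusted threshold, 10 were lower and 0 higher at an unadjusted p, and the median log2 difference was -0.05. Nlgn1, a postsynaptic adhesion receptor, stood at 958, 1099.7, 1013 and 958 counts in Dnmt3a-WT and 750.3, 881, 854 and 846 in Dnmt3a-mi5. The groups did not overlap, with a log2 difference of -0.20 (limma adjusted p = 0.14). The 10 lower members were 5 without Dnmt3a-mi5 library 4.

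Among other synaptic genes none was called. At an unadjusted p, 3 of 42 glutamate receptor and scaffold genes were higher and 4 lower (9.52%), 1 of 21 GABA synapse genes was higher and 4 lower (19.05%), and 2 of 30 vesicle release genes were higher and 1 lower. Of 43 voltage-gated potassium channel genes 5 were higher (11.6%) and 7 lower (16.3%), beside 6.37% and 8.71% of all genes. Kcnv1, a modifier subunit of potassium channels, stood at 1333, 1071, 1052 and 1105 counts against 788, 849, 968 and 862 (log2 difference -0.29, limma adjusted p = 0.128). Of 32 sodium, calcium and HCN channel genes, Cacna2d1 fell, 5 were higher (15.6%) and 3 lower (9.38%) at an unadjusted p. Gng2, a G protein subunit, was lower in every mutant library, with a log2 difference of -0.26 (adjusted p = 0.109).

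Of 52 tested autism-associated genes, 2 were higher (3.85%) and 7 lower (13.5%) at an unadjusted p, and none was called. Their median log2 difference was -0.03. Ube3a, the ubiquitin ligase of Angelman syndrome, stood at 1178, 1109, 1102 and 1064 counts against 948, 865, 969 and 949, with a log2 difference of -0.19 (adjusted p = 0.125, and 0.0483 without the set term). Among 22 tested cadherins and non-clustered protocadherins 1 was higher (4.55%) and 3 lower (13.6%) at an unadjusted p, and none was called. The lower ones included Cdh6 (-0.30, limma adjusted p = 0.14) and Pcdh7 (-0.26, adjusted p = 0.165).

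Housekeeping groups had medians near 0. The medians of 45 cytosolic ribosomal protein genes and 47 oxidative phosphorylation genes were 0.01 and 0.02 on the log2 scale, and none of either passed the adjusted threshold. The 13 tested genes of the microRNA machinery had a median of 0.00, with 1 higher and 0 lower at an unadjusted p. Among other groups, heat shock and unfolded protein response genes were higher in 4 (19.05%) and lower in 1 (4.76%) of 21 at an unadjusted p. Axon guidance genes were lower in 3 of 39 (7.69%) and cholesterol synthesis genes in 4 of 21 (19.05%), with 0 of either higher. The shares of all genes were 6.37% higher and 8.71% lower. The 25 imprinted genes had a median of 0.01 and the 14 clustered protocadherins, whose promoter choice involves DNA methylation, a median of 0.03.

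Of 17 tested glucocorticoid response genes none passed the adjusted threshold. At an unadjusted p, 9 were higher, 1 was lower and 7 passed in neither direction, and the median log2 difference was 0.18. Sgk1, a kinase induced by the receptor, stood at 713, 987, 1018 and 783 counts in Dnmt3a-WT and 1623, 1146, 1319 and 1268 in Dnmt3a-mi5. No library crossed between the groups (log2 difference 0.47, SE 0.10, limma adjusted p = 0.126).

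Tsc22d3, which encodes the glucocorticoid-induced leucine zipper, stood at 538, 701, 694 and 565 counts against 891, 834, 807 and 889.7 (log2 difference 0.32, adjusted p = 0.115, and 0.0466 without the set term). Fkbp5, a cochaperone of the receptor, stood at 305, 449, 407 and 387 against 529.5, 554, 459.6 and 566 (log2 difference 0.27, adjusted p = 0.14). The 1 lower member was Nr3c1, the receptor itself, with counts of 1774, 1394, 1644 and 1459.9 against 1313, 1268, 1354 and 1272 (log2 difference -0.21, adjusted p = 0.171). In miR29Nestin 8 of these 17 rose and 1 fell: Tsc22d3 rose by 1.03 and Sgk1 by 0.61, and Nr3c1 fell by 0.29 (limma adjusted p = 6.07e-06, 0.00329 and 0.00724). The time of day and the state of the mice at dissection were not given in the sources used here, and their part was not tested.

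Of 19 tested circadian clock genes, 9 were higher and 2 lower at an unadjusted p, with a median log2 difference of 0.09, and none passed the adjusted threshold. Dbp, an output factor of the clock, stood at 971, 929.9, 1015 and 1054 counts against 1333, 1175, 1234 and 1079 (log2 difference 0.21, adjusted p = 0.15). Bhlhe41, a repressor of the clock, had a log2 difference of 0.24 (adjusted p = 0.126), Per2, another repressor, 0.26 (adjusted p = 0.175) and Per1, which is also on the immediate early and glucocorticoid lists, 0.16 (adjusted p = 0.165). The lower members were Clock, the activator (-0.13, adjusted p = 0.16), and Rorb, which also marks layer 4 neurons (-0.27, adjusted p = 0.136). The groups of Dbp, Bhlhe41, Clock and Rorb did not overlap, whereas those of Per1 and Per2 did.

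Of the cell type markers, 1 was called: Cx3cr1, the fractalkine receptor of microglia (chromosome 9, 119901616 to 120069879), fell. It stood at 658, 619, 632 and 606 counts in Dnmt3a-WT and 479, 478, 504 and 485 in Dnmt3a-mi5, with little spread within either group (log2 difference -0.24, SE 0.03, limma adjusted p = 0.033). Of 18 tested microglia markers, 6 were lower and 0 higher at an unadjusted p, and the median log2 difference was -0.06. P2ry12, a receptor for nucleotides on resting microglia, stood at 416, 364, 388 and 394 counts against 306, 232, 313 and 223 (log2 difference -0.30, adjusted p = 0.115, and 0.0483 without the set term). The others, Siglech and Gpr34 among them, differed by less, and the summed counts of the list ran from 7073 to 7449 in Dnmt3a-WT and from 6385 to 7132 in Dnmt3a-mi5. In bulk tissue fewer cells of a type and less RNA per cell cannot be told apart.

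Of 14 tested endothelial and pericyte markers, 6 were higher and 0 lower at an unadjusted p, none was called, and the median log2 difference was 0.09. Of the 14, 13 were above and 1 below 0. The summed counts of the 28 listed genes ran from 4496 to 5137 in Dnmt3a-WT and from 5185 to 5825 in Dnmt3a-mi5, without overlap. The mean of the tested markers per library, relative to Dnmt3a-WT, overlapped between the groups. It ran from -0.06 to 0.05 in Dnmt3a-WT and from 0.04 to 0.15 in Dnmt3a-mi5 on the log2 scale. Flt1, a receptor of vascular growth factor, stood at 239, 267, 296 and 294 counts against 399, 411, 375 and 333 (log2 difference 0.25, adjusted p = 0.115, and 0.0466 without the set term), with 0.36 in set 1 and 0.14 in set 2. Slc2a1, the glucose transporter of the blood-brain barrier, had a log2 difference of 0.19 (adjusted p = 0.173). The groups of both genes did not overlap. The list's median was 0.18 in set 1 and 0.02 in set 2, and without Dnmt3a-WT library 1 the higher members were 4.

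Genes of striatal projection neurons, a population next to the dissected cortex, varied between libraries of 1 group. Their summed counts ran from 13996 to 20866 in Dnmt3a-WT and from 15624 to 28819 in Dnmt3a-mi5, with Dnmt3a-mi5 libraries 1 and 3 highest at 28077 and 28819. The list had a median log2 difference of 0.33, and 5 of 16 members were higher at an unadjusted p, from 0 without Dnmt3a-WT library 3 to 13 without Dnmt3a-mi5 library 4. Ppp1r1b, the phosphatase inhibitor DARPP-32, stood at 2248, 2068, 1878 and 3127 counts against 4341, 2810.5, 4432 and 2165 (log2 difference 0.47, adjusted p = 0.326), and the dopamine receptor Drd1 showed the same 2 libraries highest.

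The part of striatal tissue in the other results was not tested. Choroid plexus genes ran from 2525 to 17939 summed counts in Dnmt3a-WT and from 2964 to 20578 in Dnmt3a-mi5, with a wide spread in both groups. Their 6 tested members were all above 0, with 0 of them past an unadjusted p of 0.05. The median log2 difference was 0.35, with 0.62 in set 1 and 0.05 in set 2. Summed excitatory neuron and layer markers ran from 51639 to 54169 against 46560 to 50935, without overlap. Mef2c is in this sum, with 7576 to 9359.8 counts against 5537 to 6837. The means of these markers per library ran from -0.01 to 0.01 against -0.09 to -0.03 on the log2 scale. Of 32 tested members 7 were above and 25 below 0. Summed astrocyte markers ran from 132637 to 138336 against 123905 to 128126, of which Slc1a2 made up 46061 to 51907 against 39898 to 42308. The means of the astrocyte markers per library overlapped, with -0.04 to 0.05 in Dnmt3a-WT and -0.05 to 0.00 in Dnmt3a-mi5 on the log2 scale, and 10 of the 20 members were above and 10 below 0. No member of these last lists passed the adjusted threshold. Mature oligodendrocyte and myelin genes were lowest in Dnmt3a-WT library 2 (41143 summed counts, where the other 7 libraries had 53096 to 70498), and their median log2 difference was 0.21 in set 1 and -0.04 in set 2.

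The share of genes lower in the Dnmt3a-mi5 cortex was set out by gene length, without a test between the classes. Methylation outside CG is known for its part in the expression of long genes in neurons. The share of genes lower at an unadjusted p was 4.61% of 2084 genes up to 10 kb, 6.08% of 3107 from 10 to 30 kb, 10.9% of 3104 from 30 to 100 kb, 12.7% of 1332 from 100 to 300 kb and 19.3% of 435 over 300 kb, beside 8.71% of all genes. The share higher ran the other way, with 7.63%, 7.53%, 5.61%, 4.73% and 2.76%. The shifts behind these shares were small, with a median log2 difference of 0.02 for the shortest class and -0.04 for the longest, and that of the longest was -0.05 in set 1 and -0.04 in set 2.

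By library, the median over genes longer than 300 kb, relative to the wild-type mean and to all other genes, was 0.01, -0.02, -0.01 and 0.01 in Dnmt3a-WT and -0.04, -0.07, -0.03 and -0.06 in Dnmt3a-mi5. All 4 mutant libraries lay below all 4 wild-type libraries, and no test was made of this median. Of the called genes, Cacna2d1 (439.8 kb) and Ptprk (522.6 kb) belong to this class, and 84 of its 435 members were lower at an unadjusted p, from 60 to 102 when 1 library was left out. In miR29Nestin the medians of the shortest and longest classes were 0.03 and -0.12. RNA quality can also move with transcript and gene length and was not measured in these files, so its part was not tested.

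**Figure D4:**
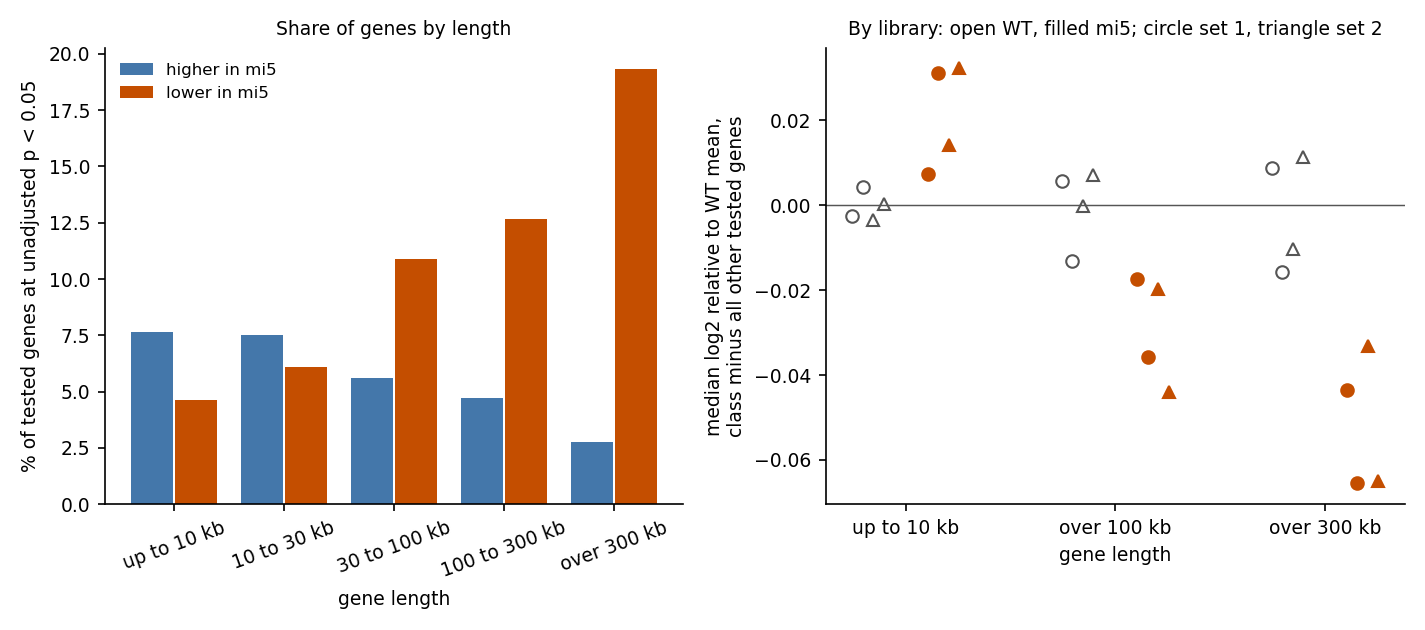
Left, percent of tested genes in each class of gene length at an unadjusted limma p under 0.05, higher (blue bars) or lower (orange bars) in Dnmt3a-mi5. Right, for each library, the median log2 value relative to the Dnmt3a-WT mean in a class minus that of all other tested genes (open Dnmt3a-WT, filled Dnmt3a-mi5, circles set 1, triangles set 2). The lower share runs from 4.61% to 19.3% with length, and the filled symbols for genes over 300 kb all lie below the open ones.

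Genes near Dnmt3a, which would be carried along with the edited chromosome, were checked within 1 Mb of its start. Of 19 such genes present, 11 were tested, none passed the adjusted threshold, and the log2 differences ran from -0.09 to 0.07.

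The 12 genes were then followed into the miR29Nestin table, which shares no control with this one and differs from it in age, kits and normalisation. All 12 had the same sign there, beside 58.9% of 10065 genes tested in both tables, and 4 were called in the same direction, beside 13.7% (20.4% called in either direction). These 4 were Dnmt3a, Scrt2, Cacna2d1 and Ptprk. They are 33.3% of the calls here and 0.175% of the 2289 calls in miR29Nestin (19.1% of the genes tested there). With Dnmt3a, the mutated gene, left out, all 11 had the same sign and 3 were called in the same direction (27.3%). None of the 12 was called in the opposite direction.

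Dnmt3a differed more without miR-29, with a log2 difference of 1.63 (SE 0.05) beside 0.70 (SE 0.06) here. Ptprk and Cacna2d1 also had larger values there, with -0.81 (SE 0.08, limma adjusted p = 9.17e-05) beside -0.30 (SE 0.04) and -0.63 (SE 0.08, adjusted p = 0.000493) beside -0.32 (SE 0.05). Scrt2 had 0.26 (SE 0.08, adjusted p = 0.0391) beside 0.36 (SE 0.05). The 3 immediate early genes called here did not pass there: Btg2 had -0.15 (SE 0.19, limma adjusted p = 0.621), Fos -0.32 (SE 0.17, adjusted p = 0.222) and Dusp6 -0.06 (SE 0.10, adjusted p = 0.733). Of the 30 tested members of that list, 2 were called higher and 5 lower in miR29Nestin, with a median log2 difference of -0.15. Of all genes tested there, 9.02% were called higher and 10% lower. The differences between the models were not tested. Of the 90 genes called here without the set term, 80 had the same sign in miR29Nestin, 26 were called the same way and 2 the opposite way.

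**Figure D5:**
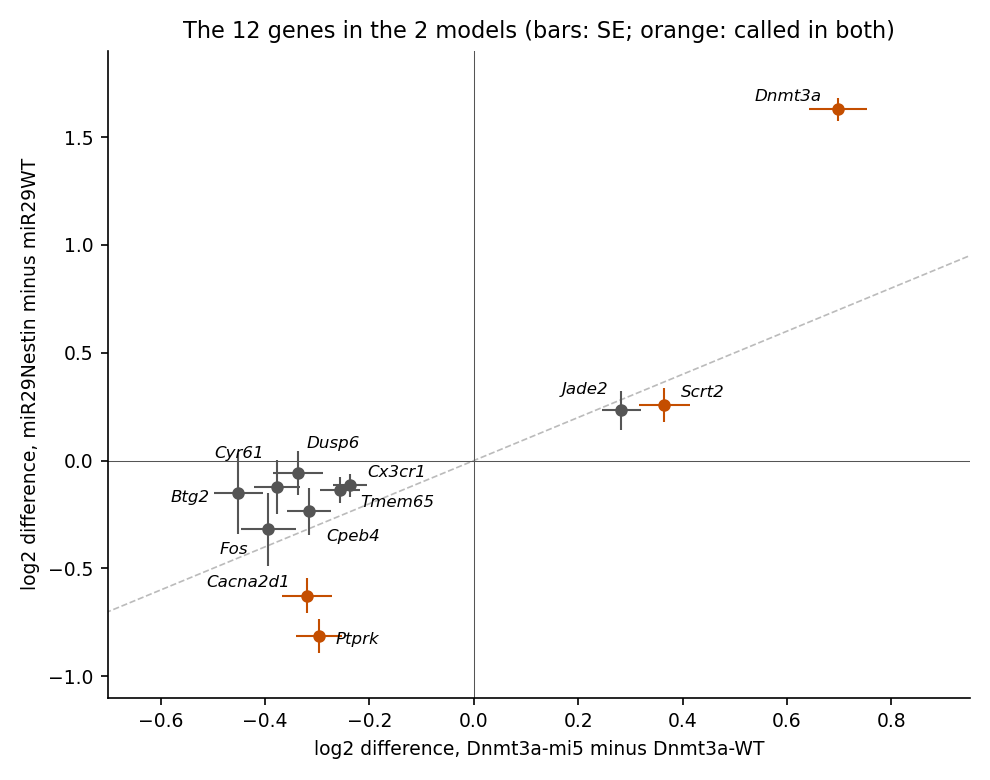
Log2 difference of the 12 called genes in Dnmt3a-mi5 (x axis) and in miR29Nestin (y axis), each against its own wild type; bars are 1 SE on either side, the dashed line marks equal values, and orange marks the 4 genes called in both. All points lie in the lower left or upper right, with Dnmt3a at 0.70 and 1.63.

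The 2 sets of libraries were also compared for the size of the mutant effect. No gene passed the adjusted threshold of limma for a difference between sets, and 167 did at an unadjusted p under 0.05 (1.65%). Leaving out 1 library gave 0 or 1 gene past the adjusted threshold and 101 to 942 past the unadjusted one.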

How the data were processed

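Polyadenylated RNA of mouse cortex was extracted with a Direct-zol kit and sequenced with KAPA stranded mRNA reagents as paired-end reads of 50 cycles, per the labels' protocols. Among tools, cutadapt, STAR, Salmon and DESeq2 stand in the submitters' processing notes that the authors deposited, beside the builds hg19 and mm9, without roles. The authors deposited log2 values from the variance-stabilising transformation of DESeq2, with 24444 genes per table. Replicate names repeat in the table's columns, so columns map to groups and not to single mice. The means of the 2 sets of libraries agreed within 5.5e-09 for every gene. Every other division into 4 and 4 libraries differed by at least 0.538 in its most different gene. The Y-linked genes Kdm5d and Uty held the same value in every library of set 1 (57.6 and 35.3 approximate normalised counts). In set 2 they ran from 53.3 to 64.8 and from 25.6 to 45.2. The removed effect is not named in the sources used here, and whether it was the sex of the mice was not tested. It also pushed values of 2546 genes below the level of 0 reads (7.63 on the log2 scale), so counts from the inverted transformation are approximate.

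Genes whose mean lay at least 1 above that level (about 99.0 approximate normalised counts, and 48.0 in the other table) were tested with limma 3.58.1 in R 4.3.3, with set and group as terms, empirical Bayes with trend and Benjamini-Hochberg adjustment (called at 0.05). The fit was tested on simulated data. Coordinates, gene lengths, UTRs and sites came from GENCODE M21 (GRCm38) by symbol: 23793 matched directly, 277 by synonym and 374 not. Python 3.11.15, numpy 2.4.6 and pandas 2.3.3 made the summaries. Alternatives covered the set term, the variance prior, filters, scalings, library weights, single libraries and a replicate block.

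The comparison, the members and the 49 gene lists were chosen with earlier results of these data known. Named genes were Dnmt3a, the methylation lists, the 15 largest rises and 15 largest falls among called genes without overlap, up to 4 called members or else 2 tested members with the smallest p per list, called genes within 1 Mb of Dnmt3a, the 10 genes with the smallest p called in both tables each way and 5 of the smallest interaction p. Named after their values were seen were also Dusp1, Junb, Nr4a1, Ier2, Egr2, Arc and Egr1 among immediate early genes, Mef2c, Mef2a, Zbtb18, Fmr1, Nlgn1, Fkbp5, Nr3c1, Dbp, Per1, Per2, Clock, Ppp1r1b, P2ry12, Siglech, Gpr34, Ttr, Scn4b, Rnf157 and Rn45s. Some results are not reported here.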

Additional observations from a re-analysis of the deposited data

Results flagged for a closer look

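Among 67 named genes, each checked in both groups of 4 libraries, 6 groups had 1 library far from the other 3, by the ratio of that library's gap to the group's range. Chance alone gives about 1 in 20 groups. In Dnmt3a-mi5, Per1 was lowest in library 4 (ratio 0.877), Clock highest in library 3 (0.832) and Siglech lowest in library 1 (0.909). In Dnmt3a-WT, Slc2a1 was lowest in library 1 (0.942), Gnai1 lowest in library 4 (0.84) and Stmn2 highest in library 2 (0.891).

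For 2 genes every mutant library lay on 1 side of its wild type here and on the opposite side in miR29Nestin; the difference between the models was not tested. Cdc42, a small GTPase among the miR-29 targets, had a log2 difference of -0.14 here and 0.11 there. Flt1 had 0.25 here and -0.15 there.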

How the results depend on the processing

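Dnmt3a kept its direction in every fit and was called in all but 1: with set 1 alone its log2 difference was 0.7255 with an adjusted p of 0.703, from 2 libraries against 2. Leaving out 1 library gave 0.66 to 0.73.

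The count of calls (12, with 3 higher and 9 lower) moved to 90 (24 and 66) without the set term, 57 (6 and 51) with library weights, 4 (2 lower) with a filter of 2 above the level of 0 reads, 0 with set 1 alone and 4 (2 lower) with set 2 alone. With 1 library left out it ran from 1 to 82, the higher calls from 1 to 15 and the lower calls from 0 to 67. Genes at an unadjusted p under 0.05 numbered 918 with the stricter filter, 709 with set 1 and 677 with set 2. The stricter filter tested fewer genes, so its numbers have another base, and Btg2, Fos, Cyr61 and Scrt2 were not among those tested. Calls shared with miR29Nestin (4) became 26, 16, 1, 0 and 1 in the order no set term, library weights, stricter filter, set 1 and set 2, and ran from 1 to 29 with 1 library left out of either table. For the difference between sets, genes at an unadjusted p (167) became 473 without a filter and 59 with the stricter one, 101 to 942 with 1 library left out, and genes called 0 to 1.

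Some genes near 0 changed sign: Tet1 was 0.038 with set 1 and from -0.047 to 0.022 with 1 library left out. Tet2 was -0.0203 with library weights, -0.031 with set 2 and from -0.043 to 0.079 with 1 library left out. Ttr was -0.0795 with set 2 and from -0.0646 without Dnmt3a-WT library 1 to 2.05 without Dnmt3a-mi5 library 3. The cause was not tested for any of these. Alternatives for single gene lists and site classes by gene length were chosen after seeing the data. Median centring kept the sign of all 48 list medians, set 1 alone kept 40, set 2 alone 39, and leaving out 1 library 39 to 45. With log2 of the count plus 1 all 48 kept their sign and 11 moved by more than the spread between libraries.

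The column headers carry the numbers 1 and 2 once per group in each set, which are not the sample numbers of the labels. A fit with these numbers as a replicate block within sets, chosen after seeing the data, called 2 genes (1 higher and 1 lower), Dnmt3a and Btg2, and 1 gene in both tables. The deviations of libraries with the same number correlated at -0.56 to -0.14, and in none of 4 cases was the own number the best match. This cannot decide whether the numbers pair mice. Removing the difference between sets pushes the 2 groups of a set to opposite deviations. The numbers are not known to pair mice. A replicate block in the miR29Nestin table gave 7 genes called in both. Depth is unknown, so no counting error could be given.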
